A study of Mus musculus with 11 samples.

Results

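The Pax, Lhx, Nkx, Dlx, Irx, Pitx, Msx and Six-family genes are developmental regulators grouped with the homeobox genes outside the Hox clusters. They were followed here in mouse embryonic stem cells (ESCs), as RNA in control and Cbx6 knockdown cells and as sites of CBX6, CBX7 and RING1B binding. Members were all entries of the RNA table whose symbol begins with one of these 8 family names and a digit. Names holding "os" and 1 further Pax gene were outside the rule, which used no measured value. This gave 58 of 23290 entries, namely 8 Pax, 8 Lhx, 14 Nkx, 9 Dlx, 6 Irx, 6 Six-family, 3 Pitx and 4 Msx symbols. Of these, 5 are named as antisense transcripts (Dlx1as, Dlx6as1, Dlx6as2, Msx1as and Nkx2-2as). A position on the mouse mm9 assembly was found for 56, and none for Dlx6as2 and Msx1as.

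All samples came from E14Tg2A, a mouse ESC line grown without feeders on gelatin in medium with serum and LIF, the cytokine that sustains self-renewal. For RNA-seq, 2 libraries came from ESCs infected with a lentivirus carrying a control short hairpin RNA (shCtl) and 2 from ESCs infected with one against Cbx6 (shCbx6). Which of the study's hairpins was sequenced is not given in the sources used here, and nothing says that same-group libraries came from separate infections, so the p-values measure the spread between these libraries, which may be technical. ChIP-seq, which maps where a protein sits on DNA, was done for CBX6 with 2 anti-HA replicates, in ESCs whose own Cbx6 gene had been given a 3×HA tag by editing and single-cell sorting, and for CBX7 and RING1B with 1 sample each. The 4 peak lists were used as deposited, and the control ChIP samples were not analysed here.

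Homeobox genes encode transcription factors that bind DNA through the homeodomain, a compact helical fold, although some Pax proteins have only part of it and Pax1 and Pax9 have none. The families studied here set up body regions and organs. Pax proteins share a paired domain and act in the eye, kidney, thyroid, muscle and immune system. Lhx proteins carry LIM domains that bind the cofactor Ldb1, Six-family proteins work with Eya coactivators, and Irx proteins belong to the TALE class. In ESCs such genes are mostly kept off and are textbook targets of the Polycomb repressive complexes. RING1B is the enzyme of PRC1 that ubiquitinates histone H2A, and CBX proteins are chromodomain subunits of PRC1.

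The libraries were checked first. Cbx6 itself stood at 17.4 and 14.9 FPKM (fragments scaled to transcript length and to the mapped fragments of the library) in shCtl and at 9.53 and 5.40 FPKM in shCbx6. Its log2 fold change was -1.06 ± 0.263 (SE, n = 2 per group), with an adjusted p of 0.247 by limma with Benjamini-Hochberg adjustment. All 8 ESC markers were expressed, and 4 of them were lower in shCbx6 by more than 1.5-fold, with 0 past limma. Over all tested genes 6.56% were lower by that much. Klf4 had 91.1 and 96.7 FPKM in shCtl against 36.7 and 28.0 FPKM in shCbx6, Nanog had 321 and 359 and then 204 and 192 FPKM, and Sox2 overlapped between groups. Trophectoderm markers summed to 10.7 and 15.7 FPKM in shCtl, 27.3 FPKM in shCbx6 replicate 1 and 245 FPKM in shCbx6 replicate 2, which thus stood apart. Of these 6 markers, Krt8 (119 FPKM) and Krt18 (122 FPKM) made up most of that sum, Hand1 was at 1.80 FPKM, and Cdx2 and Elf5, which define the lineage, were at 0.511 and 0.0533 FPKM. The remaining marker, Eomes, overlapped between groups, with 2.12 and 1.42 FPKM in shCtl against 1.63 and 1.92 FPKM in shCbx6. Fibroblast markers summed to between 1.66 and 5.36 FPKM, primitive endoderm markers to between 1.69 and 2.64 FPKM and mesoderm markers to between 2.09 and 3.44 FPKM, each highest in shCbx6 replicate 2. The collagen genes Col1a1, Col1a2 and Col3a1 and the primitive streak genes T, Mixl1 and Mesp1, all under 1 FPKM, were above both controls in both knockdown libraries. The same held for 16.5% of all entries. Of the same lists, Gsc went the other way (0.156 and 0.0615 FPKM in shCtl, 0.0326 and 0 FPKM in shCbx6). Eomes, Tbx6, Thy1, Twist2 and Pdgfrb overlapped between groups. Of 6 neuroectoderm markers 4 were tested, with 0 past limma. At 3 of these both shCbx6 libraries lay below both shCtl libraries, where 24.4% of all tested genes did. Tubb3, the most abundant, had group means of 32.1 FPKM in shCtl and 23.2 FPKM in shCbx6. Sox1 had 2.14 and 2.40 and then 0.767 and 0.287 FPKM, Ncam1 had 3.42 and 2.57 and then 1.73 and 0.825 FPKM, and Nes had 0.673 and 0.720 and then 1.59 and 3.27 FPKM. In such bulk RNA, fewer cells that express a gene and less RNA per cell cannot be told apart.

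Most members were silent or nearly so in control ESCs. Only 8 of 58 (13.8%) reached a mean of 1 FPKM in shCtl, against 48.0% of all entries. Without shCtl replicate 1, or when both shCtl libraries had to reach it, 5 did. Among the 8 were Six4, Nkx6-3, Nkx6-2, Six5, Pax8 and Lhx6. The median member stood at 0.0173 FPKM, against 0.709 FPKM over all entries and 0.0128 FPKM over the 39 Hox genes of the clusters, of which 0 reached 1 FPKM. Under 0.1 FPKM were 44 members (75.9%), and 6 were listed at 0 in all 4 libraries (Lhx1, Nkx2-6, Nkx3-2, Pax4, Pitx1 and Dlx6as2). No Dlx, Irx or Msx gene reached 1 FPKM. Summed over the members, the libraries held 23.9 and 20.9 FPKM (shCtl) and 22.7 and 18.2 FPKM (shCbx6), a range that overlaps.

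**Figure D1:**
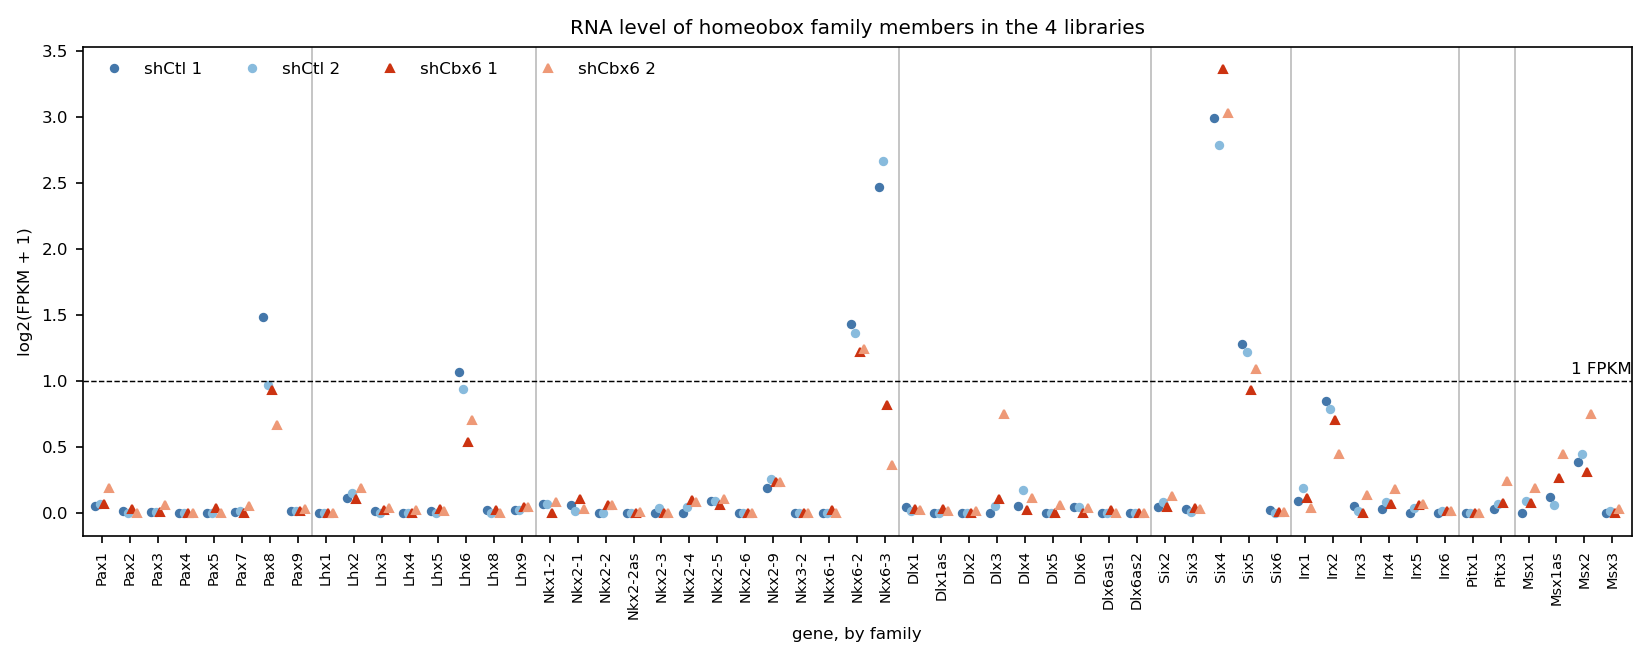
RNA level of 55 members on a log2(FPKM + 1) axis, grouped by family, with circles for the 2 shCtl and triangles for the 2 shCbx6 libraries and a dashed line at 1 FPKM. Most members lie near 0, Six4 is the highest, and Nkx6-3 shows the widest gap between circles and triangles.

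At the chromatin level the families were marked almost without exception. A gene was called a target when a peak overlapped it by at least 1 bp anywhere from 2.5 kb upstream of its transcription start to its transcription end. CBX6 replicate 1 had a peak at 55 of 56 members (98.2%, 95% Wilson interval 90.6 to 99.7), where 56.9% of all genes with a position had one. CBX6 replicate 2, a shorter list, had a peak at the same number, 55 of 56, where 16.6% of all genes had one. CBX7 had a peak at 54 of 56 (96.4%, interval 87.9 to 99.0), against 17.9% of all genes. RING1B also had a peak at 54 of 56, against 16.1% of all genes. In total, 54 members were in all 4 lists, Six4 was in both CBX6 lists alone, and Pax4 was in none. The Hox genes gave 39, 34, 39 and 36 of 39 in the same order of lists. A CBX6 replicate 1 peak sets members apart least, since most genes had one.

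The members' peaks were also long. The median member had 5315.5 bp under CBX6 replicate 1 peaks, 6431.5 bp under CBX6 replicate 2, 6711 bp under CBX7 and 6392.5 bp under RING1B. The medians over all targets of each list were 1853, 1778, 2377 and 2468.5 bp, and over the Hox genes 4247, 5770, 6517 and 6026 bp. Peaks of at least 5 kb made up 40 of the 70 RING1B peaks at members (57.1%), against 9.11% of the whole RING1B list. In CBX7 they were 44 of 84 (52.4%, against 7.97%), in CBX6 replicate 2 they were 37 of 95 (38.9%, against 5.66%), and in CBX6 replicate 1 they were 9 of 117 (7.69%, against 0.649%). The whole lists also hold peaks outside gene windows, and a wide peak overlaps a window more easily, so the 2 sets are not fully alike. The widest single RING1B peak at a member, 20352 bp, lay at Six3 (chr17:86006259-86026610, mm9), a forebrain and eye gene that also had the widest CBX7 peak, 19918 bp. Next came Pax7, a gene of muscle stem cells and the neural crest, with a RING1B peak of 17862 bp (chr4:139375261-139393122). Lhx2, a regulator of forebrain and eye development, had the longest stretch in total, 20265 bp under 2 RING1B peaks of 5956 and 15002 bp that partly reach beyond its window. Lhx2 was also the most covered member in CBX7 (19627 bp) and CBX6 replicate 2 (19970 bp). In CBX6 replicate 1 it was Pax5, the B-cell factor, with 16805 bp under 8 peaks.

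MACS scores, which rank peaks only within a list, were high at many members. In the RING1B list 43 of the 70 member peaks carried a score of 3100, a value that recurs at 507 of its 4180 peaks. The CBX7 list had 43 of 84 member peaks at that score, among 403 in all. CBX6 replicate 2 had 22 of 95, among 134 in all, with the highest member score, 3145.24, at Irx3. In CBX6 replicate 1 no peak had that score, and its highest member score was 1088.83 at Six2. The start site itself lay under a peak at 46 of 56 members in CBX6 replicate 1, at 50 in CBX6 replicate 2, at 51 in the CBX7 list and at 50 in RING1B. Neighbouring members shared some peaks, as at Dlx1 with Dlx1as, Dlx5 with Dlx6as1 and Nkx2-2 with Nkx2-2as. Shared peaks numbered 8, 8, 6 and 5 in the 4 lists, so members are not independent of each other.

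**Figure D2:**
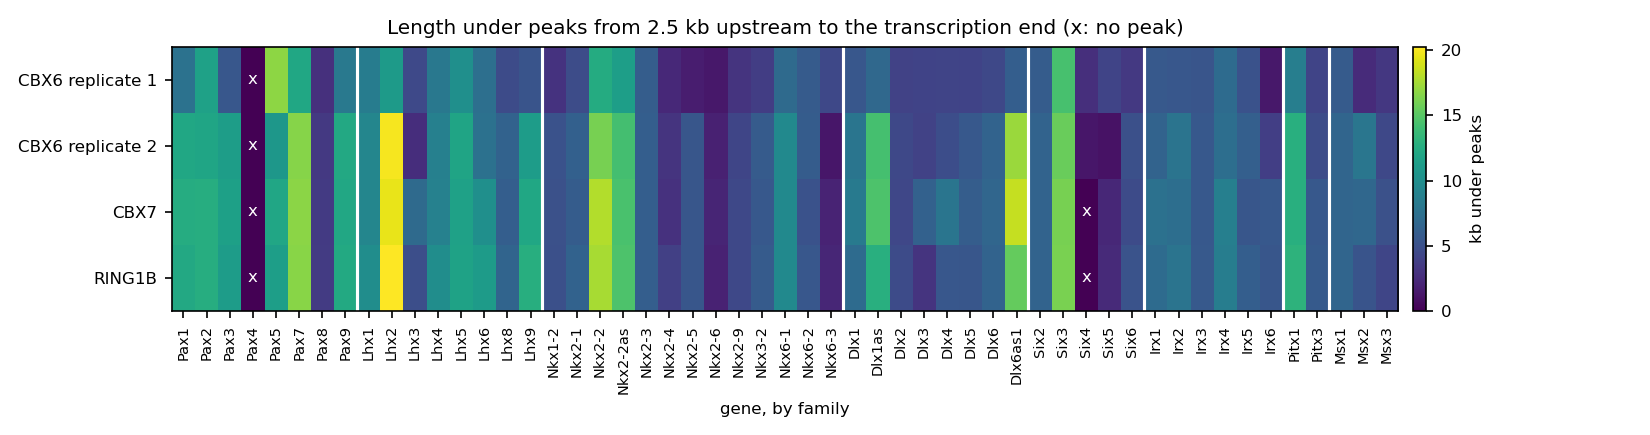
Length in kb under peaks of each list (rows) for 53 members with a position (columns, by family), with an x where a list has no peak. Lhx2, Nkx2-2, Pax7 and Six3 are bright in CBX6 replicate 2, CBX7 and RING1B, while Pax4 is empty in all lists and Six4 in CBX7 and RING1B.

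Promoters of these families held more CG dinucleotides at the median than promoters in general, with a wide range. RefSeq promoters, 300 bases each around the start on the GRCm38.p6 assembly, were given for 37 members (44 promoters) and were placed on mm9 by exact match. The member promoters held a median of 19.5 CG dinucleotides (range 4 to 40), against 7 over 32164 promoters, and a median GC content of 62% against 53%. RING1B peaks covered 41 of the 44 (93.2%), against 10.0% of all promoters. CBX7 covered 41, CBX6 replicate 2 covered 40 and CBX6 replicate 1 covered 39, against 10.5%, 8.58% and 35.8% of all. A count of 20 or more CG was found in 22 member promoters and in 26.9% of all promoters, and RING1B covered 21.3% of all promoters with that count. Below are the 250 bases before the start of 4 members, 5′ to 3′ on the gene's strand, with GRCm38.p6 positions and every CG in capitals. Lhx2 is shown as the member with most sequence under RING1B and Six4 as the one with most RNA and no RING1B peak. Six5 and Nkx6-2 were chosen after their values were seen, as expressed members with a narrow and a wide RING1B peak over the start.
Lhx2 (chr2:38339031-38339280, + strand, 25 CG): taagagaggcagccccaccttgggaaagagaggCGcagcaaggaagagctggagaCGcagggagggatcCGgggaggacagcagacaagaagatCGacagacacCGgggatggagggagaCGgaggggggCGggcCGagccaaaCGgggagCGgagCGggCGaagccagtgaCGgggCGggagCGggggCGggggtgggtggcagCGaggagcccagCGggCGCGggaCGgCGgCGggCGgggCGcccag
Six4, upstream entry (chr12:73113426-73113675, - strand, 13 CG): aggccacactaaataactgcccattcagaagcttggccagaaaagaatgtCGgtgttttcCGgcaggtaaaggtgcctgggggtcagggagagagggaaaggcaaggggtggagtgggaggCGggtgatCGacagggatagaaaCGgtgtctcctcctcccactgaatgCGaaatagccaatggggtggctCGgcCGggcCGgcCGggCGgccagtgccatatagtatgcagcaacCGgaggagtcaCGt
Six5 (chr7:19094294-19094543, + strand, 13 CG): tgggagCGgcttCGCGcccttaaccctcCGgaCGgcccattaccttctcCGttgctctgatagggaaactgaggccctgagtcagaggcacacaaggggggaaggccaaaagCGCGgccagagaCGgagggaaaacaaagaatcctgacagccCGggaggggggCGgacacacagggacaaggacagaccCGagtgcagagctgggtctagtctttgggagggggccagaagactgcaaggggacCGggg
Nkx6-2 (chr7:139582798-139583047, - strand, 26 CG): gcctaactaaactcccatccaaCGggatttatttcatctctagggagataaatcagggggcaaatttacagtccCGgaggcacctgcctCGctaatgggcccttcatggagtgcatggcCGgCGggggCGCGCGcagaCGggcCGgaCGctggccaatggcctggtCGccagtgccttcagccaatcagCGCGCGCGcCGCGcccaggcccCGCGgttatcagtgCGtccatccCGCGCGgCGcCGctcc
The 4 were chosen in part by their RING1B peaks, so no relation between CG count and RING1B is read from them. Low CG counts also occurred with long RING1B stretches, as in the 300 bases at Lhx9 (6 CG, with 12679 bp under RING1B over the gene window) and Pax9 (11 CG, with 12315 bp). Both are internal RefSeq starts. On mm9 they lie at chr1:140738972-140739271 for Lhx9, whose gene start is 140745153, and at chr12:57796208-57796507 for Pax9, whose gene start is 57792754. Their CG counts thus do not describe the outermost starts of these genes. RING1B had no peak at Six4 and 1 peak of 2400 bp at Six5.

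The Six-family genes summed to more FPKM than any other of the families in each library. Six4, which acts in muscle, kidney and sensory organs, had the highest level of all members in every library, with 6.94 and 5.91 FPKM in shCtl against 9.26 and 7.15 FPKM in shCbx6. The gene lies at chr12:74201246-74214401 (mm9, minus strand). Both CBX6 replicates had a peak over its start, of 1577 bp (score 184.81) and 1203 bp (score 70.37), each centred in a coding exon. The nearest CBX7 and RING1B peaks lay 59181 and 59536 bp from the start. Six5 (chr7:19679893-19683694), a gene next to the myotonic dystrophy locus in mammals, was at 1.44 and 1.33 FPKM in shCtl against 0.906 and 1.13 FPKM in shCbx6, and had RING1B over its start with a score of 353.94. Six2, Six3 and Six6 were under 0.1 FPKM in shCtl and had RING1B over 6487, 16163 and 5202 bp.

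In the Nkx family, whose members pattern the ventral neural tube, heart, gut and prostate, 2 of 14 were expressed. Nkx6-3, a gene of the stomach antrum and hindbrain (chr8:24263743-24269420), stood at 4.55 and 5.36 FPKM in shCtl. Its chromatin also differed in shape from most members. RING1B had a single peak of 2207 bp with a score of 140 that began 3453 bp downstream of the start and was centred in untranslated sequence of the gene's last part, and CBX7 had one of 2052 bp centred in a coding exon there. CBX6 replicate 1 had a peak of 1615 bp over the start (score 83.49) and one of 2861 bp (score 271.29) further down, while CBX6 replicate 2 had only a downstream peak of 1200 bp (score 55.6). Nkx6-2, an oligodendrocyte and neural tube gene (chr7:146765276-146768696), was at 1.70 and 1.58 FPKM in shCtl with RING1B over 6310 bp across its start at a score of 3100. Its 276 bp overlap with Inpp5a on the other strand, a gene at 6.19 to 8.76 FPKM, makes its RNA value uncertain, since strand-specific counting is not stated. Nkx2-2 and its antisense neighbour shared a RING1B peak of 17598 bp, which overlaps 1 end of the longer antisense transcript (chr2:147004321-147021918), and Nkx2-2 was listed at 0 in both shCtl libraries. Over the family the median RING1B length was 5458.5 bp.

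Among the Pax genes only Pax8, needed for the thyroid and kidney, was expressed, at 1.79 and 0.963 FPKM in shCtl, further apart than the group means of 1.38 and 0.750 FPKM. It lies at chr2:24276071-24331119 on the minus strand. All 4 lists had 1 peak near its start, with RING1B over 3502 bp (score 2633.16) and CBX7 over 3418 bp (score 2169.37), while the CBX6 peaks of 2841 and 3396 bp began 54 and 141 bp downstream of the start. Pax4, the islet beta-cell gene (chr6:28392334-28399353), was both listed at 0 in all libraries and free of peaks. Its nearest peaks lay 24621 bp (CBX6 replicate 1), 50784 bp (CBX6 replicate 2), 50829 bp (CBX7) and 50695 bp (RING1B) from the start. The family's median RING1B length, 11774.5 bp, was about the same as in CBX7 (12071.5 bp) and CBX6 replicate 2 (11608 bp), and longer than in CBX6 replicate 1 (7914.5 bp).

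Lhx6, which directs cortical interneurons (chr2:35937470-35960928), was the only Lhx gene at 1 FPKM, with 1.10 and 0.922 FPKM in shCtl. Its 4 RING1B peaks covered 11096 bp, the first of 5320 bp over the start with a score of 3100 and the others centred in introns. The Lhx family had a median of 10520.5 bp under RING1B, and each of its 8 genes was a target in every list. Lhx2 stood at 0.0870 and 0.115 FPKM in shCtl against 0.0759 and 0.142 FPKM in shCbx6, which overlap.

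Pitx1, a hindlimb gene, had 13120 bp under RING1B and was listed at 0 in all libraries, and Pitx3, a lens and dopamine neuron gene, had 5742 bp with 0.0257 and 0.0508 FPKM in shCtl.

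The remaining families had no member at 1 FPKM in shCtl and RING1B at each of the 17 genes with a position. Irx2 was the highest Irx gene, at 0.802 and 0.726 FPKM in shCtl against 0.629 and 0.368 FPKM in shCbx6, with 7795 bp under RING1B. Msx2, a craniofacial and limb gene, was at 0.309 and 0.366 FPKM in shCtl against 0.242 and 0.684 FPKM in shCbx6, with 5260 bp. Dlx4 was the highest Dlx gene in shCtl with 0.0374 and 0.129 FPKM, against 0.0196 and 0.0829 FPKM in shCbx6. Dlx3, a skin and placenta gene, was listed at 0 and at 0.0373 FPKM in shCtl, and at 0.0790 and 0.681 FPKM in shCbx6. The high value came from the library with 245 FPKM of trophectoderm markers, and their part in it was not tested. Median RING1B lengths were 6600.5 bp for Irx, 5957 bp for Dlx and 5260 bp for Msx. The Irx genes lay between 5458 and 8562 bp.

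**Figure D3:**
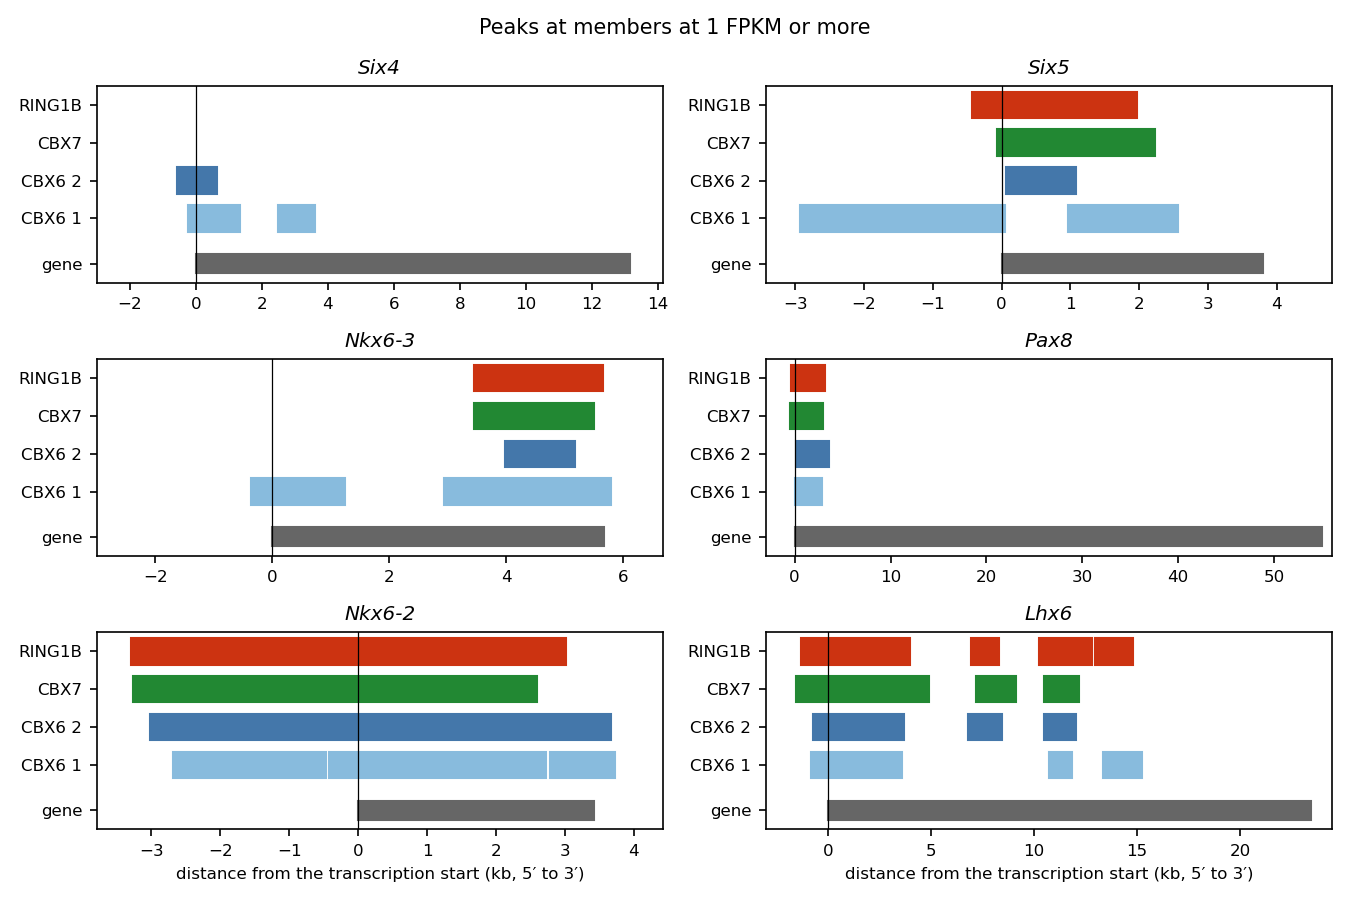
Peaks of the 4 lists around the transcription start (0 on the horizontal axis, in kb, gene read left to right, gene body in grey) of 6 members at 1 FPKM or more in shCtl. Six4 has CBX6 peaks alone, Nkx6-3 has RING1B and CBX7 away from the start, and Six5, Pax8, Nkx6-2 and Lhx6 have RING1B over the start.

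RNA level and RING1B length can be set side by side for the 56 members with a position. The 8 members at 1 FPKM or more had a median of 3985.5 bp under RING1B (0 to 18379), and the 48 others had 6524 bp (0 to 20265). A RING1B peak of at least 5 kb was present at 3 of the 8 and at 37 of the 48. The ranges overlap almost fully, and the split rests on the 8 members at 1 FPKM, which were 5 without shCtl replicate 1. For CBX6 replicate 1 the medians were 4252.5 and 5428 bp, for CBX6 replicate 2 they were 4658.5 and 6461.5 bp, and for CBX7 they were 4257 and 6880.5 bp. These are descriptions, as genes of a family and of a shared peak are not independent.

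**Figure D4:**
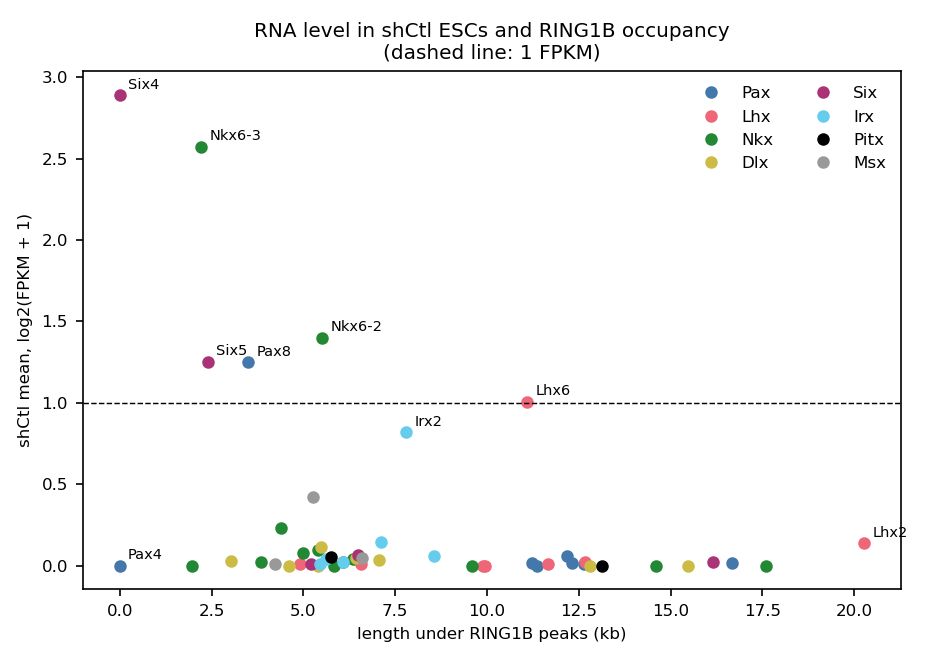
Mean shCtl level of 53 members as log2(FPKM + 1) against the length in kb under RING1B peaks, coloured by family, with a dashed line at 1 FPKM. Six4 and Nkx6-3 combine the highest levels with 0 and 2207 bp, whereas Lhx6 lies near 1 FPKM with 11096 bp and Lhx2 is low with 20265 bp.

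The knockdown comparison asked whether less Cbx6 went with other levels of these genes. No member passed limma at an adjusted p of 0.05, where 0.0949% of the 11592 tested genes did (11 genes). The test took genes whose mean reached 1 FPKM in shCtl or shCbx6, on log2(FPKM + 1), which understates changes of low genes. All 8 tested members met this filter through shCtl and 5 of them also through shCbx6, so a count of directions among the 8 carries no weight. At an unadjusted p under 0.05 there was 1 member (Nkx6-3, which passed the filter through shCtl alone), beside 1352 of all tested genes (11.7%). The exact permutation test of 2 against 2 libraries cannot reach 0.05, so it was not used.

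Nkx6-3 stood lowest against its control. Against 4.55 and 5.36 FPKM in shCtl it was at 0.762 and 0.290 FPKM in shCbx6, so that both knockdown libraries lay far below both controls. The means, 4.95 ± 0.572 and 0.526 ± 0.334 FPKM (SD, n = 2), had a ratio of 9.42 (shCtl to shCbx6). The limma log2 fold change was -1.98 ± 0.219 (SE), with an adjusted p of 0.0757, just above the threshold. The adjusted p passed in 2 alternatives. It was 0.0286 with the replicate number as a block and 0.00879 without shCbx6 replicate 1, where the knockdown is 1 library that is assumed to vary like the controls. Over all alternatives it ranged from 0.00879 to 0.483. The log2 fold change stayed between -2.20 and -1.75 when any 1 library was left out.

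Six4 was the only tested member with both shCbx6 libraries above both shCtl libraries. Its log2 fold change was 0.30 ± 0.176, with an adjusted p of 0.585 by limma. Pax8, Lhx6, Six5 and Nkx6-2 had both shCbx6 libraries below both controls, and none of them passed the test. Pax8 read 0.911 and 0.588 FPKM in shCbx6 (log2 fold change -0.43 ± 0.252, adjusted p = 0.593 by limma). Lhx6 read 0.455 and 0.629 FPKM (-0.38 ± 0.199, adjusted p = 0.539 by limma). Nkx6-2, at 1.34 and 1.37 FPKM, and Six5 had log2 fold changes of -0.17 ± 0.169 and -0.24 ± 0.183. Groups that do not overlap were found for 43.2% of all tested genes (18.9% with shCbx6 above and 24.4% below), and nothing is read from the members' directions, since all of them passed the filter through shCtl.

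By the study's 1.5-fold threshold on the ratio of means, with no test, 1 member was higher in shCbx6, where 7.63% of tested genes were. Lower in shCbx6 were 3 members (Nkx6-3, Pax8 and Lhx6), where 6.56% of tested genes were. Without shCbx6 replicate 1, 0 were higher. Without shCtl replicate 1, 1 was lower (Nkx6-3), since Lhx6 and Pax8 then fell under the filter. The 3 lower members are those that passed the filter through shCtl alone, so their count follows in part from the selection and is given as a description.

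**Figure D5:**
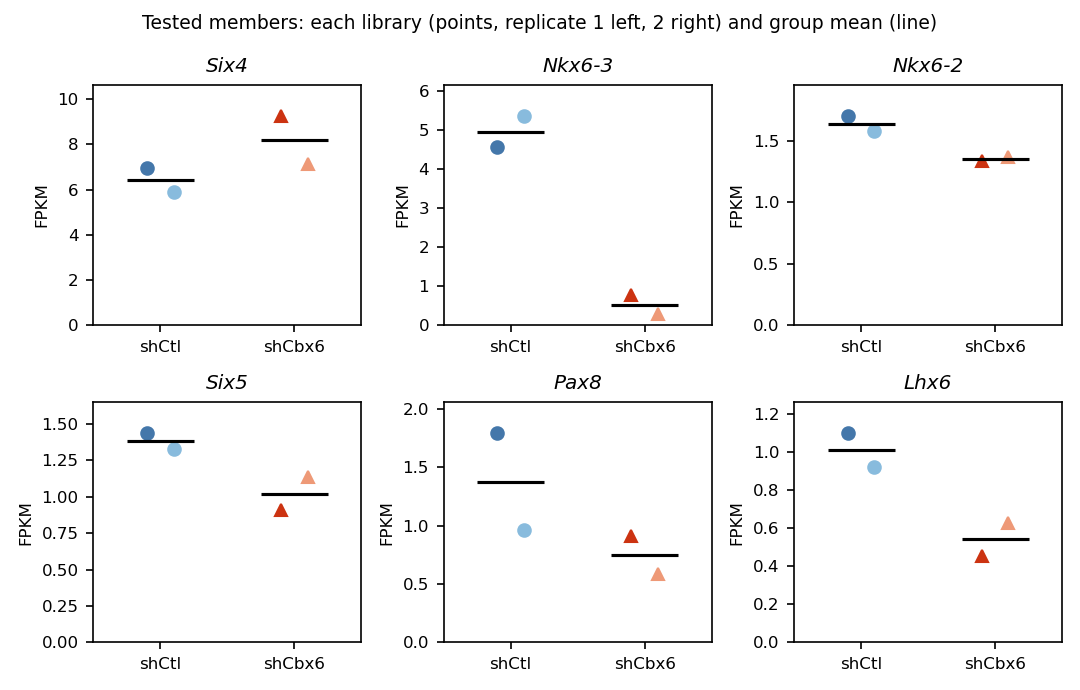
FPKM of 6 tested members in each library (circles shCtl, triangles shCbx6, replicate 1 left and 2 right) with a line at each group's mean, on axes that start at 0 and differ between panels. Nkx6-3 shows groups far apart, and Six4 shows shCbx6 above shCtl by little.

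The 50 members under the filter had a median of 0.0131 FPKM in shCtl and 0.0233 FPKM in shCbx6. Their mean was higher in shCbx6 for 35 (70.0%) and lower for 9 (18.0%), where of all 11696 entries under the filter 35.5% were higher and 24.4% lower. The rest were listed at 0 in all 4 libraries, which holds for 6 of the 50 members and for 4691 of the 11696 entries. The shares therefore differ in part through entries at 0, and the values lie near the floor. Over all 58 members, both shCbx6 libraries lay above both shCtl libraries at 13 (22.4%), where 16.5% of all entries did, and below at 7 (12.1%), where 16.1% did. Besides Six4 the 13 were Pax1, Pax3, Pax9, Lhx3, Lhx9, Nkx2-2, Nkx2-4, Dlx1as, Dlx3, Irx5, Pitx3 and Msx1as. At Pax3, Pax9 and Lhx3, shCbx6 replicate 1 exceeded shCtl replicate 1 only by the depth ratio of these libraries, given below. Pax9, for example, had 0.0127 and 0.0126 FPKM in shCtl against 0.0133 and 0.0226 FPKM in shCbx6. The place of these genes among the 13 is not read as a rise. Listed at 0 were 22 and 20 members in shCtl replicates 1 and 2, 16 in shCbx6 replicate 1 and 12 in shCbx6 replicate 2 (37.9, 34.5, 27.6 and 20.7%), and all entries at 0 made up 26.9, 27.6, 26.7 and 24.9%.

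Relative depth was read from the commonest ratio of values under 0.1 FPKM between libraries, held by 290 of 1205, 274 of 1204 and 250 of 1319 genes. By this measure the depth of shCtl replicate 2, shCbx6 replicate 1 and shCbx6 replicate 2 was 101, 95.6 and 113% of that of shCtl replicate 1. The deepest library, shCbx6 replicate 2, was also the one with the most trophectoderm marker RNA and the fewest members at 0. Apart from Pax3, Pax9 and Lhx3 in replicate 1, the part of depth and of other cell types in these counts was not tested. Msx1as, the antisense transcript of Msx1, had 0.0913 and 0.0451 FPKM in shCtl against 0.207 and 0.365 FPKM in shCbx6, so all its libraries were low. Reads of Dlx1 and Dlx1as, of Dlx6 and Dlx6as1 and of Nkx2-2 and Nkx2-2as, which overlap on opposite strands, cannot be told apart without strand-specific counting, so these values are uncertain.

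Genes that work with or beside these families were read from 3 lists. Of 29 partner genes, 15 were tested and none passed limma in either direction. The LIM cofactor Ldb1 had 101, 87.5, 117 and 76.7 FPKM (shCtl 1 and 2, then shCbx6 1 and 2), and the Six-family coactivator Eya3 had 13.9, 12.4, 13.5 and 14.5 FPKM, both overlapping between groups. Aes, a short Groucho-type corepressor, was the 1 of 15 tested partners past 1.5-fold, where 6.56% of all tested genes were lower by that much. It stood at 77.9 and 88.1 FPKM in shCtl against 55.7 and 50.9 FPKM after knockdown (log2 fold change -0.63 ± 0.149, adjusted p = 0.235 by limma). Below the filter, the Six-family coactivator Eya1 was at 0.885 and 0.910 FPKM in shCtl against 0.671 and 0.415 FPKM in shCbx6. RING1B had a peak at 10 of the 29 partners, where 16.1% of all genes had one. Of 11 patterning signals that act upstream in embryos, RING1B had a peak at 11 and only Bmp4 was tested, at 22.4 and 20.7 FPKM in shCtl against 13.4 and 6.59 FPKM after knockdown (log2 fold change -1.11, adjusted p = 0.291 by limma).

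Homeobox genes of other families made up the last list. RING1B had a peak at 41 of 43, where 16.1% of all genes had one, and 6 were tested, with 0 past limma. All 6 were past 1.5-fold, 2 higher (Otx2 and Phox2a) and 4 lower (Vax2, Cdx1, Gbx2 and Prrx2) in shCbx6, where 7.63% and 6.56% of tested genes were. The filter sets 4 of these directions, since Vax2, Cdx1 and Prrx2 passed it through shCtl alone and Phox2a through shCbx6 alone. At an unadjusted p under 0.05 by limma there were 4 (Otx2, Gbx2, Vax2 and Cdx1), where 11.7% of tested genes were. Since Vax2 and Cdx1 passed the filter through shCtl alone, this count follows in part from the selection and is given as a description. Otx2, an anterior and primed-state regulator, had 3.42 and 4.65 FPKM in shCtl against 15.3 and 30.4 FPKM after knockdown (log2 fold change 2.18, adjusted p = 0.117 by limma). Vax2, an eye gene, had 5.96 and 6.17 FPKM in shCtl against 1.29 and 0.365 FPKM after knockdown (adjusted p = 0.103 by limma). Cdx1, a posterior patterning gene, had 2.58 and 2.80 FPKM in shCtl against 0.797 and 0.659 FPKM in shCbx6, and Gbx2, a hindbrain boundary gene, had group means of 20.9 and then 11.9 FPKM. The groups did not overlap for any of these 4 genes, as for 43.2% of all tested genes.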

How the data were processed

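RNA-seq was analysed in 4 libraries and ChIP-seq in 4 peak lists of 11 samples. The authors aligned reads to mm9 with TopHat (unique hits) and deposited Cufflinks FPKM for each gene symbol, with tool versions not given in the sources used here. They aligned ChIP reads with Bowtie and called peaks per sample with MACS (shift size 75 bp), and the deposited peak score ranks peaks within a list. ChIP depth is unknown, and relative RNA depth was read from low FPKM values, a step added after the data were seen. Members and gene lists were chosen with earlier results of these data known.

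Genes whose mean reached 1 FPKM in shCtl or in shCbx6 were tested with limma 3.58.1 (R 4.3.3, lmFit and eBayes with a trend) on log2(FPKM + 1), with Benjamini-Hochberg adjustment over all 11592 genes. The step was also run on simulated data with SDs shuffled among genes. That run did not copy how spread depends on level, so nothing is read from it here. FPKM are relative, so they do not show the total RNA of a cell. Discarding reads with several hits lowers near-identical copies. Peaks were assigned on GENCODE genes of mm9 with Python 3.11.15 (pandas 2.3.3, numpy 2.4.6, scipy 1.17.1, matplotlib 3.10.9), where 94.1% of symbols had a position (21923, of which 774 by synonym). Wilson intervals cover counting error only. Named were the highest member of each family, members at 1 FPKM, tested members with separate groups, members with the highest score or longest coverage, and members without peaks, and others were named after their values were seen. Alternatives covered filter, pseudocount, scaling, fold, replicate term, libraries left out, peak window, score and overlap. Promoters were from RefSeq (GRCm38.p6), of which 97.9% matched mm9 exactly. The values of 3 members are not reported here.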

Additional observations from a re-analysis of the deposited data

How the results depend on the processing

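Of the results that answer a comparison, 50 values under an alternative stayed close to the reported ones (a count within 1.5 times, the median log2 fold change within 0.0995, the SD of the medians of single library pairs) and 14 moved further. The count of members that passed limma was 0, and it was 1 without the filter (Nkx2-2, listed at 0 in shCtl) and 0 to 1 with 1 library left out (1, Nkx6-3, without shCbx6 replicate 1, where 398 of all genes passed in place of 11). Members higher by 1.5-fold numbered 1, and 29 of 52 without the filter, where 20.1% of all genes above 0 were higher, and 0 to 1 with 1 library left out. Members lower numbered 3, and 9 of 52 without the filter, where 12.7% were lower, 1 at a fold of 2, where 2.31% were, and 1 to 4 with 1 library left out (1 without shCtl replicate 1, where Lhx6 and Pax8 fell under the filter). The median log2 fold change of the tested members, all of which passed the filter through shCtl, was -0.20, and 0.011 without the filter, -0.34 with a pseudocount of 0.1, and -0.27 to 0.11 with 1 library left out. Members at 1 FPKM in shCtl numbered 8, and 5 when both libraries had to reach it, and 5 to 8 with 1 library left out (5 without shCtl replicate 1). The cause was not tested. The labels give the groups the same replicate numbers, but no shared batch, and deviations of same-numbered libraries had a correlation of 0.27. With the replicate number as a block, 1 member passed limma (Nkx6-3, adjusted p = 0.0286), 388 of all genes passed, and in both pairs 0 members were higher by 1.5-fold and 2 lower (Nkx6-3 and Pax8). Counts of members with a peak stayed within 1.5 times the reported ones under every window, score and overlap tried. With 2 libraries per group and a filter at 1 FPKM, the 50 members under it were not tested.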
